A study of Homo sapiens with 16 samples.

Results

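The cytosolic ribosomal protein (RP) genes encode the proteins of the small and large subunits of the ribosome that translates nuclear mRNAs. Members were taken by symbol, as protein-coding genes named RPL or RPS followed by a number, with or without a closing A or X, together with RPLP0, RPLP1, RPLP2 and RPSA. In all 77 genes of the 60649 in the deposited count table met this rule, 46 for the large and 31 for the small subunit. They lie on 21 chromosomes, 4 of them on the X chromosome. Of these, 76 were among the 19103 genes with enough counts for a test, and 1 was not.

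The libraries came from mesenchymal stromal cells (MSCs) of the immortalized line ASC52telo, a single line made from adipose tissue. Mitomycin C (MmC), which alkylates and crosslinks DNA, was given at 1.5 µg/mL for 18 h to make the cells senescent, and the protein GDF11 was added at 10 ng/mL over the next 10 days. The 4 groups of 4 libraries were "young" MSCs without either agent (MmC-/GDF11-), young MSCs with GDF11 (MmC-/GDF11+), senescent MSCs without GDF11 (MmC+/GDF11-) and senescent MSCs with it (MmC+/GDF11+). Polyadenylated RNA was sequenced, and a library held between 71275337 and 144204979 counts. The 5 MSC markers examined (NT5E, THY1, ENG, CD44 and ITGB1) were at 507 CPM (the count of a gene relative to the library size, scaled by TMM) or more in every library. Of 8 markers of blood, endothelial and epithelial cells, EPCAM and KRT5 were at or near 0, PECAM1 reached 19.7 and CD34 19.1 CPM, and the sum of the 8 was 16.84 to 30.95 CPM in MmC-/GDF11-, 17.59 to 23.35 in MmC-/GDF11+, 22.96 to 34.50 in MmC+/GDF11- and 22.44 to 32.20 in MmC+/GDF11+. After MmC without GDF11 the endothelial markers PECAM1 and CDH5 were called in opposite directions, at 1.27 (adjusted p = 0.00966) and -1.51 (adjusted p = 4.48e-06) on the log2 scale. The part of these shifts between MmC- and MmC+ in the results below was not tested.

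A ribosome holds a single copy of most of these proteins, so a cell makes them in near equal numbers, and their mRNAs are among the most abundant in growing cells. Most RP mRNAs begin with a 5′ terminal oligopyrimidine (TOP) tract, a C at the start of transcription followed by an unbroken run of C and U, through which mTOR signalling and the RNA-binding protein LARP1 control their translation. Some RPs have roles outside the ribosome. RPL5, RPL11 and RPL23 bind the ubiquitin ligase MDM2, a link that is studied in DNA damage and senescence.

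The starts of RP genes are shown first, because most members share the TOP tract, which some other genes carry too. The RefSeq promoter table (GRCh38) held 62 of the 77 members, with the entry nearest to the annotated start taken for the 10 members with several. In 60 of the 62 it lay within 5 bases of the start of the canonical GENCODE transcript. Each sequence below runs 5′ to 3′ on the gene's own strand over 20 bases before and 20 from the start of transcription, which is the base at position 21, with the longest run of C and T that begins with a C and lies within 5 bases of the start in capitals. RPSA, RPS7, RPS3A and RPLP0 are shown as members that fell after MmC, and RPLP1, RPL37A, RPS27 and RPS19 as members that did not pass the test.
RPSA, chr3:39406700-39406739, plus strand: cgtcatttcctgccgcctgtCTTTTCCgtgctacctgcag
RPS7, chr2:3575240-3575279, plus strand: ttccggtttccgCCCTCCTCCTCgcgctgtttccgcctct
RPS3A, chr4:151099608-151099647, plus strand: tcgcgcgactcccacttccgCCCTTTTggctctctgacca
RPLP0, chr12:120201092-120201131, minus strand: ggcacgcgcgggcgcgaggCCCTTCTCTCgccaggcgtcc
RPLP1, chr15:69452798-69452837, plus strand: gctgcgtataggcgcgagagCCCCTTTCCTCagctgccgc
RPL37A, chr2:216498824-216498863, plus strand: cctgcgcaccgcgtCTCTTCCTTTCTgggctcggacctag
RPS27, chr1:153990742-153990781, plus strand: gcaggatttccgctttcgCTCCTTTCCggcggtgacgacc
RPS19, chr19:41860235-41860274, plus strand: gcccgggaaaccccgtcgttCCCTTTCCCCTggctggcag

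A C at the annotated start followed by at least 4 C or T was found in 46 of the 62 members (74.2%), against 1429 of 35116 promoters in the whole table (4.07%), read on the strand of each gene. RPS7 is among the 16 without it, since its run of 11 pyrimidines ends soon after the annotated start. The 46 members with the tract had a median log2 fold change after MmC of -0.37 without GDF11 and -0.47 with GDF11. For the 16 without it the medians were -0.38 and -0.40. Members with the tract stand at either end of the range of changes, RPSA and RPS3A near the bottom and RPLP1, RPL37A, RPS27 and RPS19 near the top.

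After MmC the RP genes were lower as a family, and the fall was measured in both media. Without GDF11, 40 of the 76 tested members fell and 0 rose at an adjusted p under 0.05 (52.6% lower, against 22.4% lower and 22.9% higher over all tested genes). With GDF11, 48 fell and 0 rose (63.2% lower, against 23.3% lower and 23.4% higher over all tested genes). The median log2 fold change of the 76 was -0.38 without and -0.47 with GDF11, while that of all 19103 genes was -0.01 in both. These comparisons share no library, but both were taken from the same fit of all 16 libraries. In both of them 37 members were called lower. The share of all tested genes called lower in both is not given here, so the 37 has no background. Between groups, 74 members without GDF11 and 76 with it had a fitted change below 0. Of all 19103 tested genes, 9691 without and 9666 with GDF11 did so. All 4 MmC+ libraries were below all 4 MmC- libraries for 29 members without GDF11 and 45 with it, where 18.2% and 21.2% of all tested genes did the same.

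Counts on RP genes made up 5.21%, 6.66%, 5.53% and 4.67% of all counts in MmC-/GDF11- replicates 1 to 4, and 3.82%, 4.22%, 4.32% and 4.09% in MmC+/GDF11-. With GDF11 the shares were 5.56%, 6.19%, 7.02% and 5.11% in young and 4.10%, 4.48%, 4.34% and 4.08% in senescent MSCs. Every MmC- library was above every MmC+ library. Group means were 5.52% ± 0.84 and 5.97% ± 0.83 in young MSCs and 4.11% ± 0.22 and 4.25% ± 0.19 in senescent MSCs (SD, n = 4). Fewer cells and less RNA per cell cannot be told apart in such bulk samples, and a share says how RP mRNA stood relative to other polyadenylated RNA, not how much a cell held. The share of mitochondrially encoded counts moved the other way, from 1.58% to 3.11% in MmC- libraries to 3.55% to 4.73% in MmC+ libraries, and its part in the RP share was not tested.

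**Figure D1:**
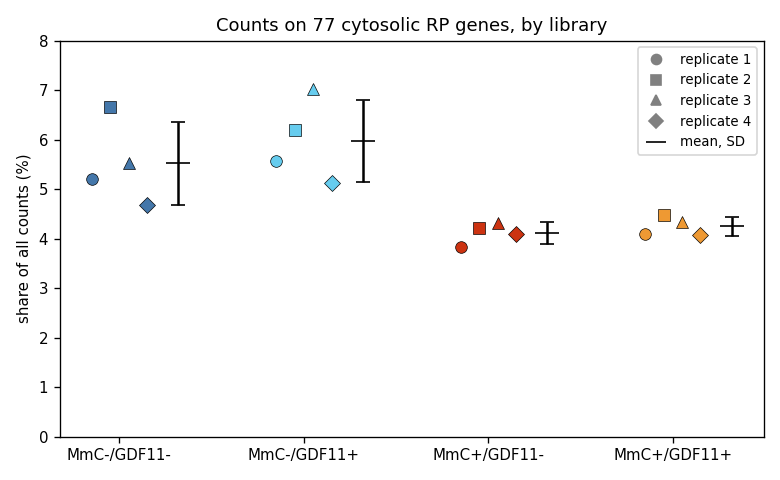
Share of all counts that fell on the 77 RP genes (y axis, %) in each library of the 4 groups (x axis), with a marker shape for each replicate number and the mean and SD beside them. The 8 MmC+ libraries lie between 3.82% and 4.48%, all below the lowest MmC- library at 4.67%, and the MmC- libraries are the more spread.

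The spread was larger among the libraries of young MSCs. In MmC-/GDF11-, replicate 2 was the highest of its group for 72 of the 72 members with a mean of at least 10 CPM, and replicate 4 was the lowest for 67. In MmC-/GDF11+, replicate 3 was the highest for 59 and replicate 4 the lowest for 61. The members thus moved up and down together from library to library, and culture and library preparation cannot be told apart here. The median coefficient of variation of a member was 19.4% and 18.8% in the MmC- groups, where other tested genes had 12.5% and 10.0%. In the MmC+ groups it was 6.23% and 5.87%, where other genes had 11.5% and 10.3%. The counts called lower changed with single libraries of both kinds. Without MmC-/GDF11- replicate 2 the count was 21 in place of 40, and without MmC+/GDF11- replicates 4, 2 and 1, each left out alone, it was 25, 27 and 28. Without MmC-/GDF11+ replicate 3 it was 29 in place of 48. The shares of all tested genes called lower in these fits are not given here, so these counts have no background. The median log2 fold change was -0.25 without MmC-/GDF11- replicate 2, -0.34 without MmC+/GDF11- replicate 4 and -0.35 without MmC-/GDF11+ replicate 3. The medians of all tested genes in the same fits were 0.003, -0.005 and 0.009.

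**Figure D2:**
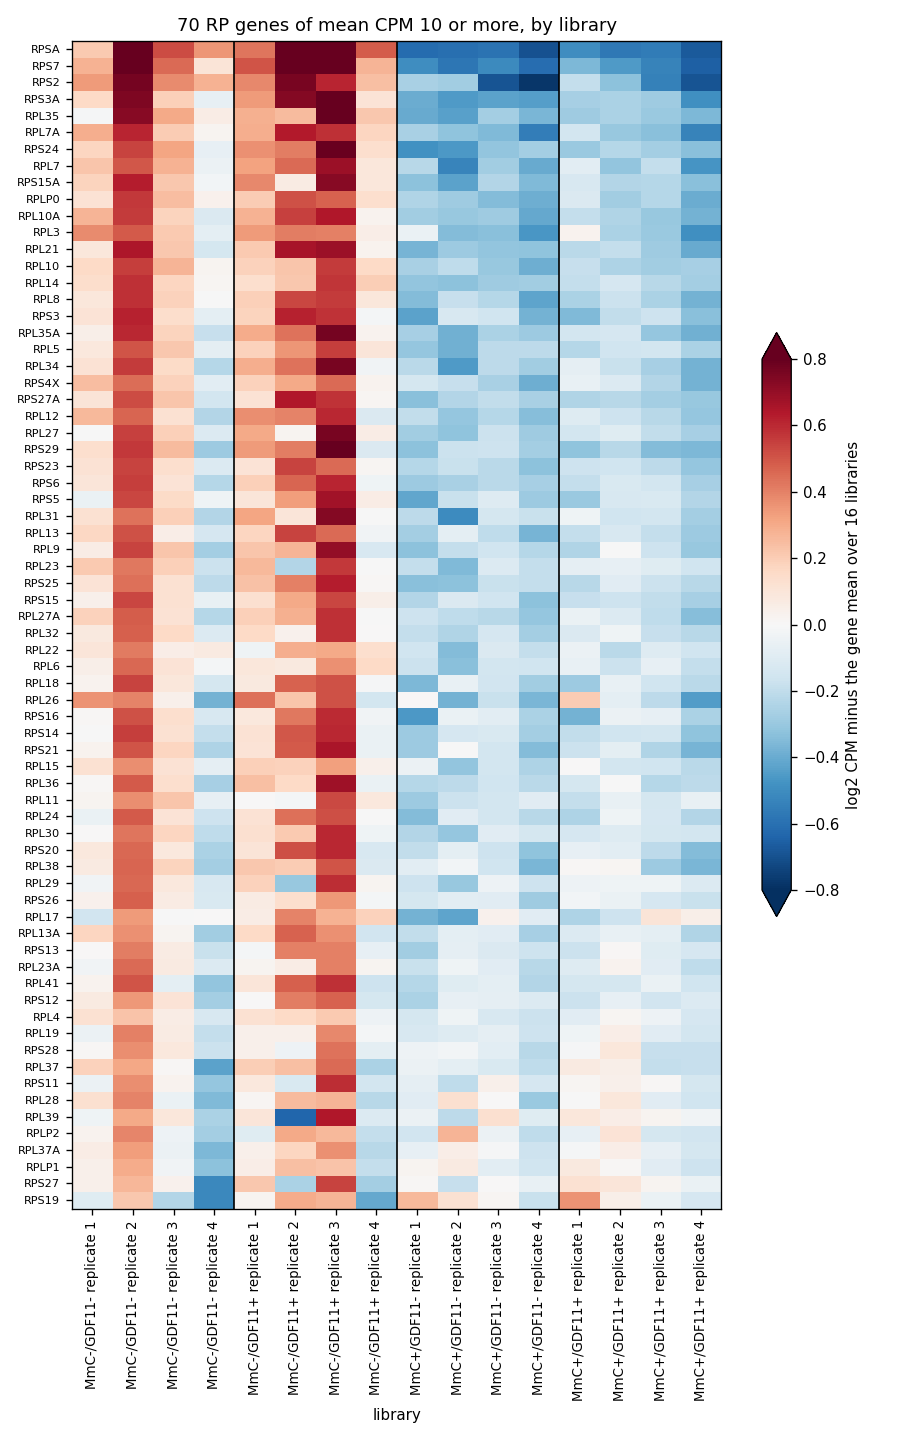
Log2 CPM of 70 RP genes (rows, ordered by their change after MmC without GDF11, with the strongest fall at the top) minus each gene's mean over the 16 libraries (columns, grouped by treatment). Red is above and blue below the mean, and the columns of MmC-/GDF11- replicate 2 and MmC-/GDF11+ replicate 3 are the reddest, while the lowest rows, down to RPS19, show little difference between MmC- and MmC+.

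The steepest falls were in 4 genes of the small subunit. RPSA, the laminin receptor, which sits on the solvent side of the small subunit (ENSG00000168028.14, chr3:39406716-39426255), was at 1150, 1938, 1428 and 1272 CPM in MmC-/GDF11- and at 649, 656, 660 and 615 in MmC+/GDF11-. With GDF11 it was at 1340, 1866, 1920 and 1396 in young and 706, 669, 675 and 624 in senescent MSCs. The groups are far apart, with the lowest young library well above the highest senescent one. Its log2 fold change was -1.17 ± 0.15 (SE, adjusted p = 2.24e-05) without and -1.29 ± 0.15 (adjusted p = 9.20e-06) with GDF11, that is to 0.446 and 0.410 of the young level.

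RPS7, which binds MDM2 as well as the ribosome (ENSG00000171863.15, chr2:3575260-3580920), was at 471, 677, 531 and 416 CPM in MmC-/GDF11- and at 275, 260, 272 and 254 in MmC+/GDF11-. In the presence of GDF11 it was at 550, 692, 749 and 468 CPM before and 302, 283, 268 and 246 after MmC. The senescent cultures lie close together and below every young culture. The log2 fold changes were -0.98 ± 0.15 (adjusted p = 0.000104) and -1.16 ± 0.15 (adjusted p = 2.32e-05).

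RPS2, a protein near the mRNA entry of the small subunit (ENSG00000140988.16, chr16:1962058-1964841), stood at 1993, 2673, 2047 and 1909 CPM in the MmC-/GDF11- libraries and fell to 1314, 1299, 976 and 918 in MmC+/GDF11-. With GDF11 it was at 2050, 2660, 2400 and 1861 CPM in young and 1378, 1254, 1081 and 975 in senescent MSCs. Here the senescent libraries were themselves uneven, yet none reached a young one. The log2 fold change was -0.94 ± 0.17 in both media (adjusted p = 0.000284 without and 0.000278 with GDF11).

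RPS3A (ENSG00000145425.10, chr4:151099624-151104642) was at 1088, 1630, 1110 and 928 CPM in the MmC-/GDF11- libraries, against 738, 710, 725 and 717 in MmC+/GDF11-, and at 1232, 1619, 1700 and 1051 in MmC-/GDF11+ and 811, 817, 799 and 691 in MmC+/GDF11+. It fell by 0.72 ± 0.17 (adjusted p = 0.00254) and by 0.85 ± 0.17 (adjusted p = 0.000746) on the log2 scale. No large subunit gene fell as far: their lowest values were -0.67 without and -0.76 with GDF11.

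**Figure D3:**
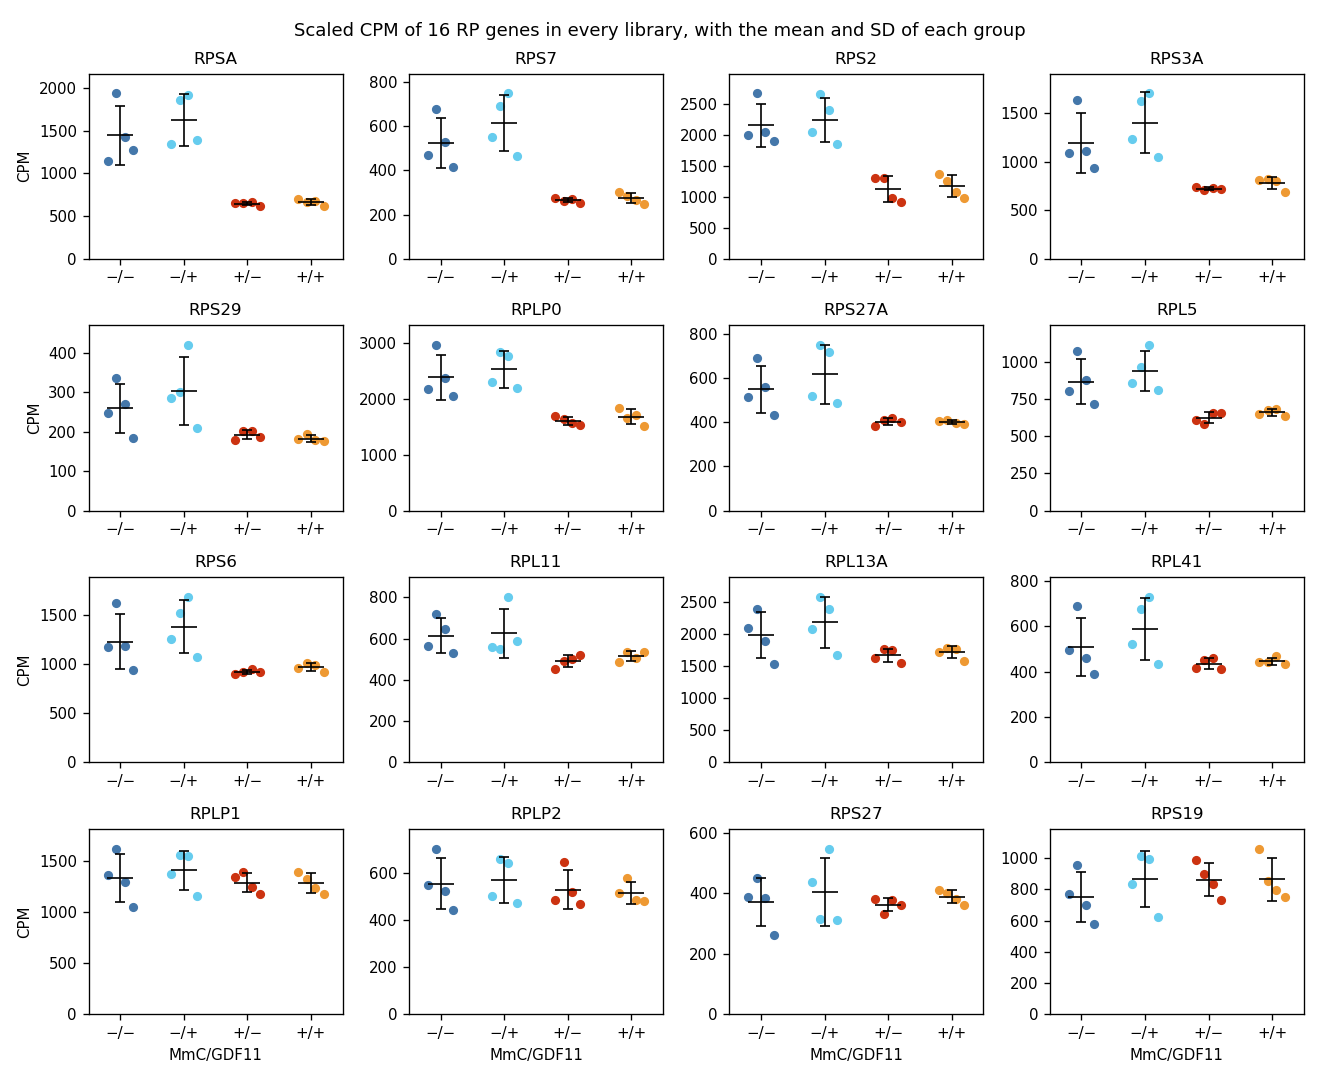
Scaled CPM (y axis, from 0) of 16 RP genes in each library, by group (x axis, MmC and GDF11 given as − or +), with the mean and SD. The genes run from RPSA, whose young and senescent libraries are well apart, to RPS19, whose groups overlap throughout.

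Values differed from member to member, and the 25 members called in neither comparison include proteins with well known roles. Without GDF11, 36 of the 76 members and 10448 of all 19103 tested genes were not called. With GDF11 these were 28 and 10177. The share of all tested genes called in neither is not given here. RPLP0, RPLP1 and RPLP2 form the stalk of the large subunit that recruits translation factors, and they gave different values. RPLP0 was at 2169, 2956, 2374 and 2045 CPM in MmC-/GDF11- and at 1694, 1641, 1571 and 1528 in MmC+/GDF11-, and fell by 0.57 ± 0.13 (adjusted p = 0.00198) without and by 0.59 ± 0.13 (adjusted p = 0.00147) with GDF11 on the log2 scale. RPLP1 was at 1356, 1614, 1294 and 1048 CPM in MmC-/GDF11- and at 1339, 1385, 1244 and 1177 in MmC+/GDF11-, so the groups overlap. Its log2 fold changes were -0.05 ± 0.13 (adjusted p = 0.803) and -0.13 ± 0.13 (adjusted p = 0.435), and those of RPLP2 were -0.07 ± 0.15 (adjusted p = 0.749) and -0.14 ± 0.15 (adjusted p = 0.462). The difference between RPLP0 and its partners was not tested.

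RPS19, the gene most often mutated in Diamond-Blackfan anaemia, was at 770, 958, 700 and 577 CPM in MmC-/GDF11- and at 985, 898, 834 and 729 in MmC+/GDF11-. With GDF11 it was at 836, 1013, 995 and 621 CPM before and 1058, 850, 796 and 750 after MmC. It had the highest value after RPS18 without GDF11, 0.20 ± 0.18 (adjusted p = 0.379), and one near 0 with it, -0.004 ± 0.18 (adjusted p = 0.986), whose sign depended on the scaling. RPS14, the anaemia gene of the deletion on the long arm of chromosome 5, gave -0.35 ± 0.16 (adjusted p = 0.0821) without GDF11 and -0.52 ± 0.16 (adjusted p = 0.0132) with it. With the replicate number as a block, a pairing taken from correlations over all genes for MmC without GDF11 (0.113 to 0.368, though over RP genes alone replicates 2 and 3 gave -0.20 and -0.12), RPS14 passed there too, at -0.33 (adjusted p = 0.0174), as it did without MmC-/GDF11- replicate 4 (adjusted p = 0.0381). With GDF11 its call was lost without MmC-/GDF11+ replicate 3 (adjusted p = 0.0591).

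RPS27, RPL37A and RPL39 were near level without GDF11, at -0.04 ± 0.17, -0.06 ± 0.14 and -0.09 ± 0.19 (adjusted p = 0.876, 0.745 and 0.729). Among the 5 highest values with GDF11 were also RPL39 at -0.04 ± 0.19, RPS27 at -0.05 ± 0.17 and RPL28 at -0.13 ± 0.15, none of which passed the test. RPL41 and RPL39, which encode the shortest proteins of the family, did not pass in either medium. RPL41 was at 496, 689, 460 and 391 CPM in MmC-/GDF11- and at 414, 453, 460 and 412 in MmC+/GDF11-, with log2 fold changes of -0.23 ± 0.17 (adjusted p = 0.280) and, with GDF11, -0.40 ± 0.17 (adjusted p = 0.0577). RPL13A, in wide use as a reference gene for PCR, was at 2102, 2402, 1895 and 1542 CPM in young and 1628, 1768, 1749 and 1551 in senescent MSCs without GDF11. Its change was -0.25 ± 0.14 (adjusted p = 0.177) without and -0.35 ± 0.14 (adjusted p = 0.0584) with GDF11, and its young libraries varied more than its senescent ones. Without MmC-/GDF11+ replicate 4, the lowest of its group, RPL13A and RPL41 passed the test with GDF11 at -0.45 and -0.51 (adjusted p = 0.0174 and 0.0171). They also passed with no scaling beyond the total count (adjusted p = 0.0269 and 0.0341). With the replicate block they passed too (adjusted p = 0.00848 and 0.0189), though the numbers did not pair the samples with GDF11.

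RPS7, RPL5, RPL11 and RPL23, which bind MDM2, gave uneven values. Of these RPS7, described above, fell furthest, with log2 fold changes of -0.98 without and -1.16 with GDF11. RPL5 was at 801, 1071, 876 and 715 CPM in MmC-/GDF11- and at 611, 578, 653 and 653 in MmC+/GDF11-, and its log2 fold change was -0.47 ± 0.12 (adjusted p = 0.00571) without and -0.50 ± 0.12 (adjusted p = 0.00374) with GDF11. RPL11 was at 564, 719, 647 and 530 CPM against 454, 492, 503 and 522, with -0.32 ± 0.13 (adjusted p = 0.0473) without and -0.28 ± 0.13 (adjusted p = 0.0774) with GDF11. RPL23 gave -0.39 ± 0.15 (adjusted p = 0.0424) and -0.27 ± 0.15 (adjusted p = 0.140). The calls of RPL11 and RPL23 without GDF11 stood close to the threshold. They were lost on leaving out 6 and 7 of the 8 libraries compared, taken singly (adjusted p up to 0.166 and 0.150, both without MmC-/GDF11- replicate 2). Both were also lost by RLE or upper-quartile scaling and with at least 10 counts in every library. The same held in the compared groups alone and with replicate 1 left out of every group (adjusted p of RPL11 0.0819 and 0.0653, of RPL23 0.0527 and 0.0865). With GDF11, RPL23 passed without MmC-/GDF11+ replicate 2 (adjusted p = 0.0418), and RPL11 passed with the replicate block (adjusted p = 0.0417). MDM2 itself was 3.79 times as high in MmC+/GDF11- as in MmC-/GDF11- (log2 fold change 1.92, adjusted p = 0.000153).

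Other members with a named role fell. RPS6, the substrate of S6 kinase, was at 1172, 1613, 1184 and 939 CPM in young and 897, 917, 944 and 914 in senescent MSCs without GDF11, with log2 fold changes of -0.42 ± 0.15 (adjusted p = 0.0343) and -0.51 ± 0.15 (adjusted p = 0.0122). Its call without GDF11 was lost on leaving out 6 of the 8 libraries, with the largest shift to -0.25 (adjusted p = 0.160) without MmC-/GDF11- replicate 2. That call was also lost by upper-quartile scaling and with at least 10 counts in every library (adjusted p = 0.0501 and 0.0529). The same held in the compared groups alone and with replicate 1 left out of every group (adjusted p = 0.0698 and 0.0601). The call of RPS6 with GDF11 was lost on leaving out MmC-/GDF11+ replicate 3 (adjusted p = 0.0557). RPS27A, made as a fusion with ubiquitin, gave -0.45 ± 0.15 (adjusted p = 0.0195) and -0.62 ± 0.15 (adjusted p = 0.00257), the first of which was -0.31 (adjusted p = 0.0867) without MmC-/GDF11- replicate 2. RPS4X, on the X chromosome, gave -0.45 ± 0.13 (adjusted p = 0.00776) and -0.44 ± 0.13 (adjusted p = 0.00899). RPL22, at 105 to 178 CPM, gave -0.37 ± 0.10 (adjusted p = 0.00647) and -0.31 ± 0.10 (adjusted p = 0.0178), the second lost on leaving out 4 of 8 libraries (adjusted p up to 0.0674).

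**Figure D4:**
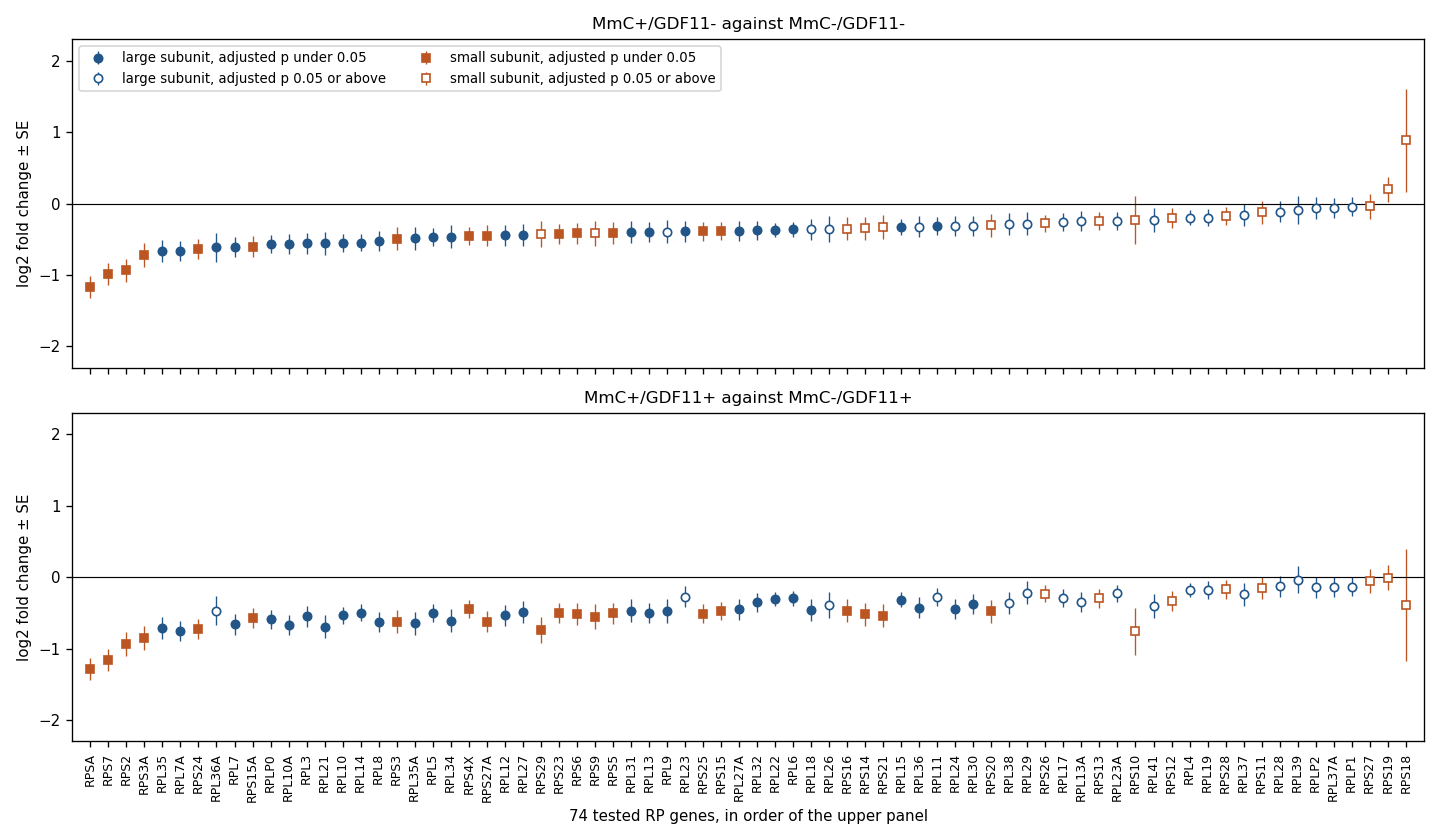
Log2 fold change after MmC with its SE (y axis) of 74 tested RP genes (x axis, in the order of the upper panel), without GDF11 above and with GDF11 below. Filled symbols passed an adjusted p under 0.05, circles are large and squares small subunit genes, and all filled symbols lie below 0, from RPSA, RPS7 and RPS2 at the left.

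Both subunits took part. Without GDF11, 25 of 46 large and 15 of 30 small subunit genes fell, with medians of -0.37 and -0.40. With GDF11, 27 of 46 and 21 of 30 fell, with medians of -0.41 and -0.51. Of all tested genes 22.4% were called lower without and 23.3% with GDF11. Members with a coding sequence longer than the median of 462 bases were called lower in 25 of 38 cases without and 28 of 38 with GDF11, and the shorter ones in 15 and 20 of 38. Across the 72 members with at least 10 CPM, Spearman's rho between coding length and log2 fold change was -0.50 without and -0.35 with GDF11. With mean CPM it was -0.12 and -0.07. These are descriptions across genes of the same libraries, and how length entered library preparation and alignment was not tested.

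Level per length differed by orders of magnitude, mostly through a few members. Per kilobase of annotated exon, RPS12 (1058 CPM per kb), RPS2 (701) and RPL8 (646) were highest over the 16 libraries, and the median member was at 167. RPS18 (0.0808), RPS10 (0.428), RPL36A (0.440) and RPS9 (0.464) were among the lowest. Per kilobase of coding sequence RPS12 ranked 15th, and the rank order of the 72 members with at least 10 CPM by both measures had a Spearman's rho of 0.49, so the order rests on which length is used.

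These low members were ones whose reads can be placed elsewhere, a trait also found in members with many counts. On the primary assembly, 100% of the 100-base words of RPL21 (240 CPM) and 79.5% of those of RPS3A (1023 CPM) also stood elsewhere. RPS18 held 212 counts over all libraries, while its pseudogene RPS18P5 held 33966. Of the words of its transcript, 74.2% of 31 bases and 7.11% of 100 bases also stood on alternate contigs of the assembly. RPS10 held 1414 counts and its pseudogenes 9268, and RPS10-NUDT3 covers 84.0% of its transcript on the same strand. For RPL36A the pseudogenes held 41947 counts against 2497, and for RPL17, of which RPL17-C18orf32 covers 96.9%, 85827 against 41281. In RPS9, 84.2% of 31-base words and 48.4% of 100-base words stood on alternate contigs. How the counting treated such reads is not given in the sources used here, and its part in these low counts was not tested. RPS18 gave 0.88 ± 0.72 without GDF11 (adjusted p = 0.337), from 0.748 CPM in MmC+/GDF11- replicate 3 and at most 0.238 in every other library. RPS10 gave -0.76 ± 0.33 with GDF11 (adjusted p = 0.0699), at 0.507 to 1.94 CPM. It passed without MmC-/GDF11+ replicate 1 (adjusted p = 0.0219) or with its pseudogene counts added (-0.52, adjusted p = 0.0309). It passed too with the replicate block (adjusted p = 0.0111) and with replicate 1 left out of every group (adjusted p = 0.0133).

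The medians moved little with such reads. All RP pseudogenes together took 0.141% to 0.260% of counts. A subset of 45 tested members had under 20% of their 100-base words elsewhere on the primary assembly and under 20% on other contigs. Their overlap on the same strand was also under 20%. They had medians of -0.38 without and -0.47 with GDF11, with 23 and 30 called lower (22.4% and 23.3% over all tested genes). In the other 31 the medians were -0.39 and -0.47, with 17 and 18 called lower. With the counts of each gene's pseudogenes added to it, 39 and 51 members were called lower and 0 higher.

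GDF11 moved no RP gene past the test. In young MSCs edgeR called 0 of 76 members and 0 of 19103 genes (0%), where DESeq2 called 0 members and 1 gene, and 0 members had an unadjusted p under 0.05, against 226 of all genes. The median log2 fold change of the 76 was 0.13, with 73 above 0. GDF11 gave the lowest unadjusted p in young MSCs for RPS10 (0.51 ± 0.33), RPS7 (0.23 ± 0.15) and RPS25 (0.20 ± 0.13). With a library left out the median of the 76 ran from 0.02, without MmC-/GDF11+ replicate 3, where 32 members were below 0, to 0.245, without MmC-/GDF11- replicate 2. In senescent MSCs 0 members and 0 of all genes (0%) were called, 0 members and 96 genes had an unadjusted p under 0.05, and the median was 0.05. The lowest unadjusted p there was that of RPS18 (-1.33 ± 0.73), with RPL17 (0.14 ± 0.13) and RPL14 (0.10 ± 0.12) next.

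The effect of MmC on RP genes was not shown to differ with GDF11. For the interaction 0 members and 0 of all genes (0%) were called, with 0 members and 172 genes at an unadjusted p under 0.05. The median difference between the log2 fold changes with and without GDF11 was -0.08, and the median SE of that difference was 0.21, so a difference of that size was not detectable here. The lowest unadjusted p values belonged to RPS29 (-0.31 ± 0.25), RPS18 and RPS10. RPS29 itself was at 248, 335, 269 and 185 CPM in MmC-/GDF11- and at 286, 301, 419 and 209 in MmC-/GDF11+. After MmC it was at 180, 201, 202 and 188 CPM in MmC+/GDF11- and at 181, 194, 178 and 176 in MmC+/GDF11+. It passed the test of MmC with GDF11 at -0.74 ± 0.18 (adjusted p = 0.00328) and not without it at -0.43 ± 0.18 (adjusted p = 0.0601), where it passed with the replicate block (adjusted p = 0.0230) and without MmC-/GDF11- replicate 4 (adjusted p = 0.0171).

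Genes that serve the ribosome in other ways were taken from lists of known roles. The mitochondrial RP genes, whose products form the separate ribosome of the mitochondrion, were lower too. Of 77 tested, 46 were lower and 1 higher without GDF11 (median -0.35), and 54 and 0 with it (median -0.42). Over all tested genes 22.4% were lower and 22.9% higher without GDF11, and 23.3% and 23.4% with it. MRPL1 was lowest, at -1.11 (adjusted p = 2.22e-05) and -1.21. MRPL45 was highest, at 0.78 and 2.07, neither called (adjusted p = 0.512 and 0.0701). The second value passed by DESeq2 (adjusted p = 0.0212) and came to 0.19 without MmC+/GDF11+ replicate 1. Of the ribosomal genes outside the symbol rule, RACK1 and the ubiquitin-type fusion FAU gave -0.42 and -0.24 without GDF11, of which RACK1 was called (adjusted p = 0.00465), and both gave -0.39 with it and were called. With the replicate block FAU passed without GDF11 as well (adjusted p = 0.0371). Its call with GDF11 was lost on leaving out 6 of the 8 libraries (adjusted p up to 0.134, without MmC-/GDF11+ replicate 3).

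The paralogs of RP genes moved in opposite directions. RPS27L, the paralog of RPS27, was at 106, 102, 94.6 and 77.5 CPM in MmC-/GDF11- and at 209, 129, 163 and 135 in MmC+/GDF11-, a rise of 0.74 (adjusted p = 0.00743) without and 0.65 with GDF11 on the log2 scale, while RPS27 itself was near level. Without MmC+/GDF11+ replicate 1 the second value was 0.50 (adjusted p = 0.0522). RPL22L1, the paralog of RPL22, was at 68.3, 80.1, 70.8 and 57.3 CPM against 28.0, 24.5, 32.4 and 32.6 and fell by 1.24 (adjusted p = 9.41e-06) and 1.46. RPL39L gave -0.65 (adjusted p = 0.00801) and -0.91. Of the 6 tested paralogs 3 were lower and 1 higher in both comparisons. Over all tested genes the shares were 22.4% lower and 22.9% higher without GDF11, and 23.3% and 23.4% with it.

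Of 23 tested translation factors and other genes of the TOP class, 10 were lower and 0 higher without GDF11 (median -0.23) and 8 and 0 with it (median -0.19), against 22.4% and 23.3% lower over all tested genes. Without GDF11 the count was 5 without MmC-/GDF11- replicate 2, 5 without MmC+/GDF11- replicate 4 and 6 without MmC-/GDF11- replicate 1, and with GDF11 it was 5 without MmC-/GDF11+ replicate 2. HNRNPA1, an RNA-binding protein of this class, fell by 1.17 (adjusted p = 7.41e-07) without and by 1.13 with GDF11 on the log2 scale, while EEF2, the elongation factor that moves the ribosome along, gave 0.06 (adjusted p = 0.740) and 0.13. IPO7, a nuclear import receptor and the highest of the list without GDF11, gave 0.06 (adjusted p = 0.621). EEF1D, lowest with GDF11 at -2.47 (adjusted p = 0.0123), stood at 60.3 CPM in MmC-/GDF11+ replicate 4 and at 2.62 to 7.46 in the other libraries. Without that replicate its value was -0.39 (adjusted p = 0.238). Of 14 RNA polymerase I genes, which make the ribosomal RNA precursor, 7 were lower and 0 higher (median -0.31) without GDF11 and 6 lower and 1 higher (median -0.20) with it, POLR1E at -0.76 (adjusted p = 3.56e-06) and -0.78 and TAF1A at 0.34 (adjusted p = 0.191) and 0.18. RRN3, the extreme of this list at -1.63 (adjusted p = 0.277) and 3.51, was at 4.16 CPM in MmC+/GDF11+ replicate 1, 2.15 in MmC-/GDF11- replicate 4 and at most 0.233 in the other libraries, and its call with GDF11 was lost on leaving out 5 of the 8 libraries, with a value of 0.86 (adjusted p = 0.530) without MmC+/GDF11+ replicate 1. Of the 10 proteins of the snoRNPs that modify ribosomal RNA, 3 and 5 were lower and 0 higher, with fibrillarin (FBL) at -1.08 (adjusted p = 0.000773) and -1.10 and NOLC1 at 0.21 (adjusted p = 0.457) and 0.23. The 3 were 6 with the replicate block, and the 5 were 3 by DESeq2, RLE or upper-quartile scaling and without any of MmC+/GDF11+ replicates 2, 3 and 4 or MmC-/GDF11+ replicate 3, so the order of the counts is not settled.

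The shares of assembly factors called lower stood near those of all tested genes (22.4% without and 23.3% with GDF11). Shares called higher were below those of all tested genes (22.9% without and 23.4% with GDF11). For the small subunit, 7 of 30 were lower and 3 higher without GDF11 and 8 and 3 with it, from NOC4L at -0.62 (adjusted p = 0.00300) to RRP12 at 0.75 (adjusted p = 0.0231, and up to 0.0703 with a library left out), with medians of -0.05 and -0.07. The 10 calls without GDF11 came to 6, 6 and 5 without MmC-/GDF11- replicates 2, 3 and 4, each left out alone, and the 11 with GDF11 to 7 without MmC-/GDF11+ replicate 4. For the large subunit, 7 of 39 were lower and 3 higher and then 9 and 3, from BOP1 at -0.83 (adjusted p = 0.00234) to EFL1 at 0.53 (adjusted p = 0.00258), with medians of -0.001 and -0.05. With the replicate block 15 were lower and 4 higher without GDF11, and 14 and 5 with it. Among 16 regulators of RP synthesis 3 were lower and 5 higher without and 4 and 4 with GDF11. MYC, a driver of ribosome synthesis, was at 49.6, 84.2, 70.0 and 62.2 CPM in young and 37.9, 72.0, 70.0 and 86.6 in senescent MSCs without GDF11, with a change of 0.002 (adjusted p = 0.996), and LARP1 gave -0.07 (adjusted p = 0.582). GDF11 moved 0 genes of any list past the test in young or in senescent MSCs.

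**Figure D5:**
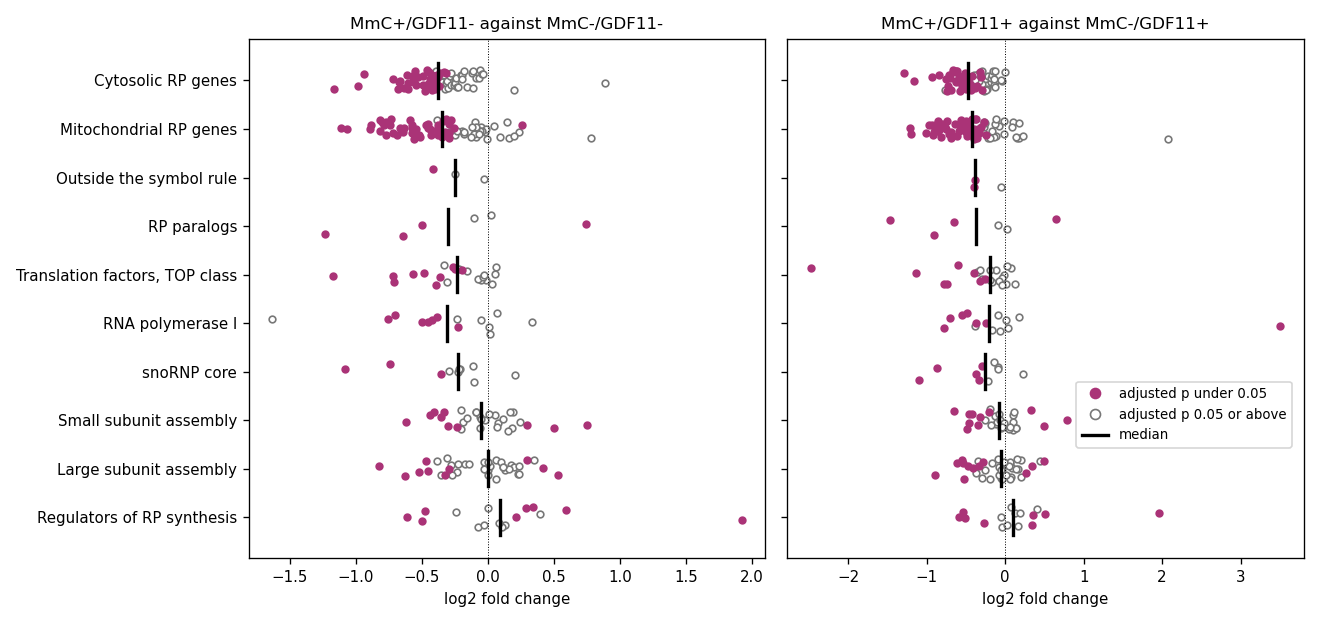
Log2 fold change after MmC (x axis) of the tested genes of each list (y axis, points spread vertically at random), without GDF11 at the left and with it at the right, filled where the adjusted p is under 0.05, with a bar at the median. The medians of the cytosolic and mitochondrial RP genes lie between -0.35 and -0.47, and those of the assembly factor lists between -0.07 and 0.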

How the data were processed

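Poly(A)-enriched RNA of ASC52telo MSCs was sequenced in 16 libraries, and groups and replicate numbers were read from the sample labels. The authors aligned read pairs to GRCh38 with HISAT2 2.2.1 and deposited raw counts per gene from featureCounts 2.0.1 on GENCODE 38, without normalization. Strand and multi-mapping settings are not given in the sources used here. Gene IDs were matched to GENCODE 44 (60463 of 60649 matched), from which symbols, coordinates and lengths were taken, and promoter sequences came from RefSeq.

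Tests were run on these counts by edgeR 4.0.16 (R 4.3.3), with filterByExpr by group (minimum count 10), TMM scaling, and a robust quasi-likelihood fit of all 16 libraries with 1 mean per group. P-values were adjusted by the Benjamini-Hochberg method over 19103 genes and called at 0.05. Standard errors are the log2 fold change over the root of its F statistic. CPM are scaled by TMM. The authors describe the samples of each group as biological replicates. They list batch effects from technical issues among the limits of the study, without naming the libraries concerned. The labels do not say how cultures were separated, so p-values measure the spread between these libraries. No pair of replicates of a group agreed within sampling noise (chi-square per degree of freedom of 58.6 or more in 24 pairs).

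Alternatives were other scalings, filters, DESeq2 1.42.0, limma-voom (limma 3.58.1), the compared groups alone, each library left out, replicate 1 left out, and the replicate number as a block. Same-numbered libraries deviated together over all genes (every correlation over 0.1) for MmC without GDF11 (lowest 0.113) and GDF11 in senescent MSCs (0.448), but not for GDF11 in young MSCs (0.0982) or for MmC with GDF11 (0.0293).

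Members named with values were the 5 highest and 5 lowest log2 fold changes of each MmC comparison, the 3 lowest p-values of each GDF11 comparison and the interaction, members of known role, and extremes per length and of each list, leaving out some genes that are not reported here, which stay in all counts and medians. The members and lists were chosen with earlier results of these data known.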

Additional observations from a re-analysis of the deposited data

Results flagged for a closer look

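A library stood apart from the other 3 of its group by Dixon's 95% criterion, which reads its gap to the nearest other against the group's range, in 16 of 212 groups of named genes and shares, where chance alone gives about 1 in 20. In MmC-/GDF11+ replicate 3, the library with the highest RP share, RPL14 was at 864 CPM (others 638 to 674) and RPL11 at 801 (551 to 590). RPL22 was at 178 CPM in MmC-/GDF11- replicate 2 (138 to 143), RPS3A at 691 in MmC+/GDF11+ replicate 4 (799 to 817) and RPS18 at 0.748 in MmC+/GDF11- replicate 3 (0.0345 to 0.0932).

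Among the list genes, MmC+/GDF11+ replicate 1 held RRN3 at 4.16 CPM (others 0.149 to 0.232), MRPL45 at 1.24 (0.0712 to 0.117), RRP12 at 26.2 (52.8 to 55.5) and EFL1 at 37.3 (51.4 to 53.1). EFL1 was also apart in MmC+/GDF11- replicate 1, at 39.4 CPM (51.9 to 52.9). MDM2 was at 63.7 in MmC-/GDF11- replicate 1 (36.1 to 40.1), RRN3 at 2.15 in MmC-/GDF11- replicate 4 (0.0621 to 0.130) and EEF1D at 60.3 in MmC-/GDF11+ replicate 4 (3.03 to 5.70). Smaller gaps were those of POLR1E in MmC-/GDF11+ replicate 1 (37.6 CPM, others 40.2 to 40.5), RPL39L in MmC+/GDF11+ replicate 4 (1.61, others 1.73 to 1.74) and LARP1 in MmC+/GDF11- replicate 3 (189, others 207 to 208).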

How the results depend on the processing

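Counts of RP genes called lower after MmC were 27 to 56 without GDF11 and 43 to 59 with it over the other scalings, filters, tools and fits run, and 0 were called higher in any. Leaving out each library in turn gave 21 to 53 and 29 to 53, with medians of -0.46 to -0.25 and -0.54 to -0.35. The shares of all tested genes called lower under these settings are not given here. With the replicate block the counts were 56 and 59 and held all 40 and all 48 genes, though the numbers did not pair the samples with GDF11. The other ribosome gene lists, with 100 and 111 calls in either direction, gave 77 to 95 and 88 to 103 with a library left out. Over all tested genes 22.4% were lower and 22.9% higher without GDF11, and 23.3% and 23.4% with it. The lists were not totalled as a share here, so these counts are not read as an excess. For GDF11 and the interaction 0 members were called under every alternative run. At an unadjusted p under 0.05 the count was 0 by edgeR, DESeq2 and limma-voom, and 1 with the block in young MSCs. The interaction was not run with the compared groups alone, since it needs all 4. Against nuclear protein-coding counts the mean RP share was 5.77% in young and 4.36% in senescent MSCs without GDF11, and 6.22% and 4.52% with it. The median level per kilobase was 290 CPM by the longest transcript and 1255 by coding length. Coding length and the addition of pseudogene counts were chosen after seeing the data.

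Signs changed in values that did not pass the test, on the log2 scale, and the cause was not tested. RPS19 with GDF11 was 0.0198 by DESeq2 and by RLE scaling, 0.0206 in the compared groups alone, 0.00813 with TMM without RP genes, 0.0114 by limma-voom, 0.00796 with the replicate block, 0.0389 with upper-quartile scaling, 0.0435 with at least 10 counts in every library, 0.00206 with no filter, 0.00423 with pseudogenes added and -0.124 to 0.0894 with a library left out. RPL39 with GDF11 was 0.0120 with at least 10 counts, 0.0354 by limma-voom, 0.00217 with the block and 0.00372 with upper-quartile scaling. RPS27 without GDF11 was 0.00375 with at least 10 counts. RPS18 with its pseudogenes added was -0.0214 after MmC in the absence of GDF11 and 0.0185 between the senescent groups. LARP1 with GDF11 was 0.0150 with at least 10 counts and 0.0103 by upper-quartile scaling, and IPO7 with GDF11 was -0.00413 with no scaling beyond the total. MYC without GDF11 was -0.0352 by limma-voom, -0.00507 with no filter, -0.00397 with no scaling and -0.0447 with the block.

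With a library left out, values of MmC without GDF11 ran from -0.816 to 1.39 for RPS18, -0.162 to 0.0786 for RPS27, -0.134 to 0.0707 for RPLP1, -0.160 to 0.0707 for RPL37A, -0.167 to 0.0772 for RPLP2, -0.166 to 0.0192 for RPL39, -0.128 to 0.0464 for LARP1, -0.139 to 0.208 for MYC and -1.999 to 1.10 for RRN3. With GDF11 they ran from -0.200 to 0.225 for RPL39, -0.145 to 0.140 for RPS27, -0.0145 to 0.0942 for IPO7, -0.0667 to 0.0417 for LARP1 and -0.0674 to 0.347 for MYC. RPS18 ran from -1.68 to 0.373 for GDF11 in senescent MSCs and from -1.77 to 0.424 for the interaction.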
